A study of Mus musculus with 32 samples.

Results

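The arrays carried 5 listed clones of the eIF4F subunits Eif4e and Eif4g1, of which 4 had deposited log2 ratios, out of 15247 clones with ratios in all. The complex eIF4F prepares mRNA for translation at its capped end. Its subunit eIF4E binds the cap, eIF4G is the scaffold that joins eIF4E to the helicase eIF4A, to poly(A)-binding protein and to the ribosome through eIF3, and the 4E-binding proteins compete with eIF4G for eIF4E. The amount of eIF4E available to eIF4G is regarded as limiting for many mRNAs, and overexpressed eIF4E transforms rodent fibroblasts.

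RNA came from 3T3-tTA-eIF4E, an NIH 3T3 mouse fibroblast line in which eIF4E is switched on by taking tetracycline out of the medium, and from its parental line 3T3-tTA, which carries the tetracycline-controlled transactivator and was treated in the same way. The 16 Mouse 15K3 cDNA arrays, each a competition of a Cy3-labelled with a Cy5-labelled RNA, fell into 4 sets of 4. In each line, total RNA after 5 h of induction was hybridized with total RNA from uninduced cells (total RNA arrays), and heavy polysomal RNA of induced cells with total RNA (polysomal arrays). A set rested on 2 RNA extractions, each used in both dye orientations, and which arrays shared an extraction was not given. Each clone was printed as 2 neighbouring spots, deposited as separate samples, so 32 samples stood for 16 arrays. Below, T and P with a number name a total RNA or a polysomal array, and every ratio is a log2 value after averaging the spots. The sample labels call the total RNA reference of the eIF4E line's polysomal arrays uninduced, whereas the methods say that it came from induced cells. Only 1 transfected line was used, and in the polysomal contrast, which has no uninduced polysomal RNA, an effect of induction cannot be told apart from other traits of that line.

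The clones were selected on their values: Eif4e clones were listed for a difference between the cell lines in total RNA, and the Eif4g1 clone for a difference in the polysomal/total ratio. These contrasts are therefore given as a description, without a test. The Eif4e polysomal ratios and the Eif4g1 total RNA ratios did not enter the choice and were tested. The Eif4e clones were H3130B02, H3012A09, H3089A10 and H3134G10, and the Eif4g1 clone was H3040G06. H3134G10 had no deposited ratio and was read from the scanner intensities of 4 polysomal arrays. The clones of Eif4e report on the same mRNA and are not replicates of a condition.

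Duplicate spots correlated across clones with r from 0.561 to 0.92. Arrays of a set with opposite dyes, turned to the same direction, correlated with r from -0.605 to 0.136 for total RNA and from -0.421 to 0.131 for polysomal RNA. The dyes given in the labels set the direction throughout. Of the fibroblast markers with a named clone, Bgn and Col1a2 gave a foreground over 1.5 times the local background in the total RNA channel of 4 of 4 scanned arrays, and Dcn in 3 of 4. The clone of the endothelial marker Pecam1 did so too, at 8.76 to 44.6 times background.

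Eif4e mRNA, which encodes the cap-binding subunit, was far higher after tetracycline removal in 3T3-tTA-eIF4E, and in the parental line its ratio lay near 0. For H3130B02 the induced/uninduced log2 ratio in 3T3-tTA-eIF4E was 3.55 on T9, 3.45 on T11, 5.16 on T13 and 2.99 on T15. In 3T3-tTA it was 0.27 on T1, 0.01 on T3, -0.16 on T5 and 0.03 on T7. The sets did not overlap, and T13 was the highest array of its set. The means were 3.79 ± 0.95 (SD, n = 4 arrays), a fold of 13.8, and 0.04 ± 0.18.

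H3012A09 gave 2.54, 2.09, 4.18 and 2.73 on T9, T11, T13 and T15, with a mean of 2.89 ± 0.90 and a fold of 7.39. In 3T3-tTA it ranged from -0.21 to 0.11. H3089A10 gave 2.44, 2.64, 3.56 and 2.36, with a mean of 2.75 ± 0.55 and a fold of 6.73. In 3T3-tTA it ranged from -0.17 to 0.27. T13 was the highest array for each of the 3 clones, and each clone's arrays of the eIF4E line lay above all arrays of the parental line.

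The line difference was 3.75 for H3130B02, 2.91 for H3012A09 and 2.69 for H3089A10. These ranked first, the third and the fourth of 15247 clones from the top. The arrays of the eIF4E line lay wholly above those of the parental line for 0.302% of all clones, a share set beside these 3 for scale because the clones had been chosen by this contrast. The clone ranked between them, H3058D02, has no gene name in the sources used here and differed by 3.36. The next clone after these 4 differed by 1.03. With induced RNA in Cy3 the mean differences between lines exceeded those with it in Cy5, at 4.15 and 3.35 for H3130B02, 3.27 and 2.54 for H3012A09 and 3.19 and 2.20 for H3089A10. T13 is a Cy3 array. The other Cy3 array, T11, lay between the Cy5 arrays T9 and T15 for H3130B02. It lay below both for H3012A09 and above both for H3089A10.

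Among themselves, the Eif4e clones kept part of an order on the induced arrays. H3130B02 exceeded H3012A09 on 4 of 4 arrays by 0.90 ± 0.46 and H3089A10 on 4 of 4 arrays by 1.04 ± 0.43. H3012A09 exceeded H3089A10 on 3 of 4 arrays, by 0.14 ± 0.50, which is less than the spread between arrays. The spots of a clone on an array differed by 0.00255 to 0.739, with a median of 0.0857. Whether the signal came from the native gene or from the inducible construct was not tested.

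**Figure D1:**
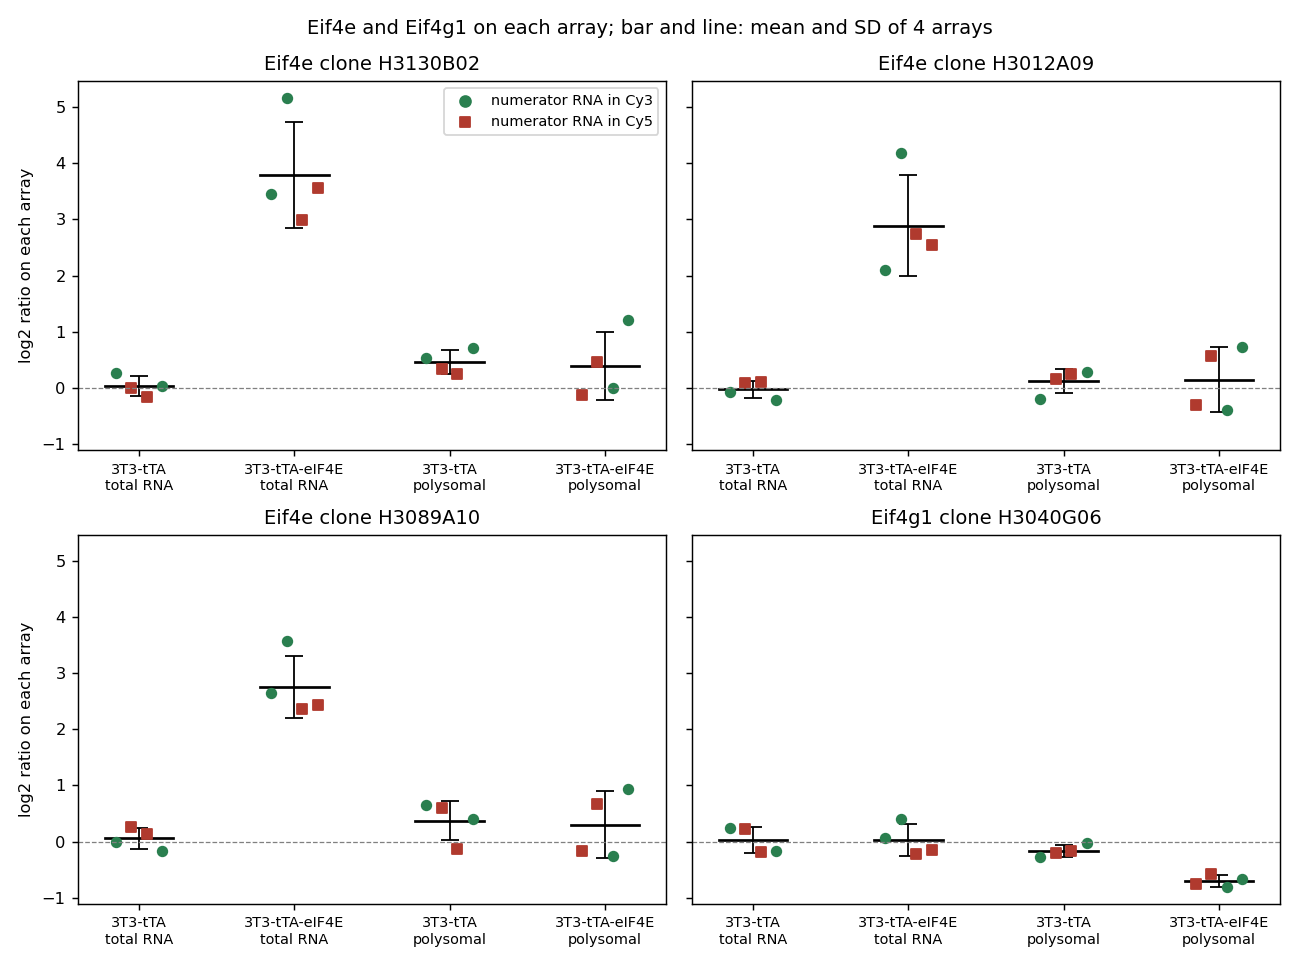
Log2 ratio of the 3 Eif4e clones and the Eif4g1 clone on each of 16 arrays, induced/uninduced for total RNA and polysomal/total for polysomal RNA; circles and squares give the dye of the numerator RNA, lines and bars the mean and SD of 4 arrays. Eif4e stands at 2.09 to 5.16 on the total RNA arrays of 3T3-tTA-eIF4E, and Eif4g1 at -0.81 to -0.57 on its polysomal arrays.

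The polysomal/total ratio of Eif4e mRNA, which the choice did not use, was not found to differ between the lines. This ratio is relative to the centre of each array as set by lowess, and is not an absolute share of the mRNA on heavy polysomes. H3130B02 had a polysomal/total log2 ratio of -0.12 on P1, 0.46 on P3, -0.01 on P5 and 1.22 on P7 in 3T3-tTA-eIF4E. In 3T3-tTA it had 0.72 on P9, 0.54 on P11, 0.34 on P13 and 0.24 on P15. The sets overlapped, with P7 above and P1 and P5 below every parental array. The means were 0.39 ± 0.61 and 0.46 ± 0.21 (SD, n = 4 arrays each).

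H3012A09 had -0.30, 0.56, -0.40 and 0.74 on P1, P3, P5 and P7, and 0.28, -0.20, 0.16 and 0.24 on P9, P11, P13 and P15. H3089A10 had -0.16, 0.67, -0.25 and 0.94 in the eIF4E line and 0.40, 0.64, 0.59 and -0.13 in the parental line. In the eIF4E line P3 and P7 were above P1 and P5 for all 3 clones, and each of these pairs holds both dye orientations. In the parental line no array was highest or lowest for all 3 clones.

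The difference between lines in the polysomal/total ratio was -0.07 for H3130B02, with a standard error of 0.35 and a 95% interval from -0.99 to 0.84 (limma, adjusted p = 1.00). It was 0.03 for H3012A09, with a standard error of 0.39 and an interval from -0.97 to 1.03 (limma, adjusted p = 1.00). It was -0.07 for H3089A10, with a standard error of 0.41 and an interval from -1.14 to 0.99 (limma, adjusted p = 1.00). On the linear scale the widest limits were 0.454 times and 2.04 times the parental ratio. A clone was called at 1.3-fold or more with an adjusted p below 0.1, and 0.0% of the 15247 clones were called in this comparison. At an unadjusted p under 0.05 there were 150 clones, or 0.984%, and no Eif4e clone was among them. On P3, P7, P11 and P15 alone the deposited values gave differences of 0.45, 0.63 and 0.55, since P3 and P7 were the higher arrays of their set.

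Within each line the Eif4e ratio was not distinguished from 0. In 3T3-tTA-eIF4E the means of H3130B02, H3012A09 and H3089A10 were 0.39, 0.15 and 0.30, with adjusted p-values from limma of 0.766, 0.962 and 0.874. In 3T3-tTA they were 0.46, 0.12 and 0.37, with adjusted p-values from limma of 0.669, 0.943 and 0.768. Averaged over the 3 clones the ratio was 0.28 ± 0.58 in the eIF4E line and 0.32 ± 0.15 in the parental line. With the reference of the eIF4E line read as uninduced total RNA, as labelled, subtracting its induced/uninduced ratio moved the line differences to -3.86, -2.86 and -2.82.

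On P3, P7, P11 and P15 the scanner intensities gave the Eif4e signal in each RNA separately, and the only values for H3134G10. In the total RNA channel H3134G10 had a foreground of 7631.5 on P3 and 3813.5 on P7 in the eIF4E line. In the parental line it had 942.5 on P11 and 544.5 on P15. The eIF4E arrays were far brighter, at 10.5 and 5.62 times the channel median against 0.842 and 0.860 times. With the same dye compared and each channel scaled to its median, the eIF4E line was 12.2-fold higher in Cy3 and 6.67-fold higher in Cy5.

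The other Eif4e clones were high in the same channel, which served as the reference of the polysomal ratios. H3130B02 stood at 22.2 times the channel median on P3 and 9.52 times on P7, against 1.16 times on P11 and 1.45 times on P15. The log2 difference between lines in the total RNA channel, as the mean of both dyes, was 3.17 for H3134G10, 3.49 for H3130B02, 2.75 for H3012A09 and 3.92 for H3089A10. Over all 15247 clones the median of this difference was 0.03 with an SD of 0.44. These values compare the lines, not induced with uninduced cells of 1 line, and the labels and the methods differ on which of these the total RNA channel of P3 and P7 holds. For the 3 clones with deposited ratios, these channel differences of 3.49, 2.75 and 3.92 stood beside line differences of 3.75, 2.91 and 2.69 on the total RNA arrays.

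In the polysomal RNA channel the log2 difference between lines was 3.52 for H3134G10, 3.65 for H3130B02, 3.35 for H3012A09 and 4.40 for H3089A10, so that the Eif4e signal was higher in the eIF4E line in both RNAs. Some of these spots were not clear of their local background: in Cy5 H3134G10 was under it on P15, and H3130B02 was at 1.33 times it on P3. In Cy3 alone these clones differed by 3.21 and 3.87. Each channel comparison rests on 1 array per line and dye, and no test was made. The polysomal/total ratio of H3134G10 was 0.64 on P3 and 0.89 on P7 in the eIF4E line, and 0.43 on P11 and -0.06 on P15 in the parental line. This ratio ranked the arrays as H3089A10 did, with P7 highest and P15 lowest. On P15 the Cy5 foreground of H3134G10 was 0.436 times its local background, so the lowest of these ratios rests on a spot under its surroundings.

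**Figure D2:**
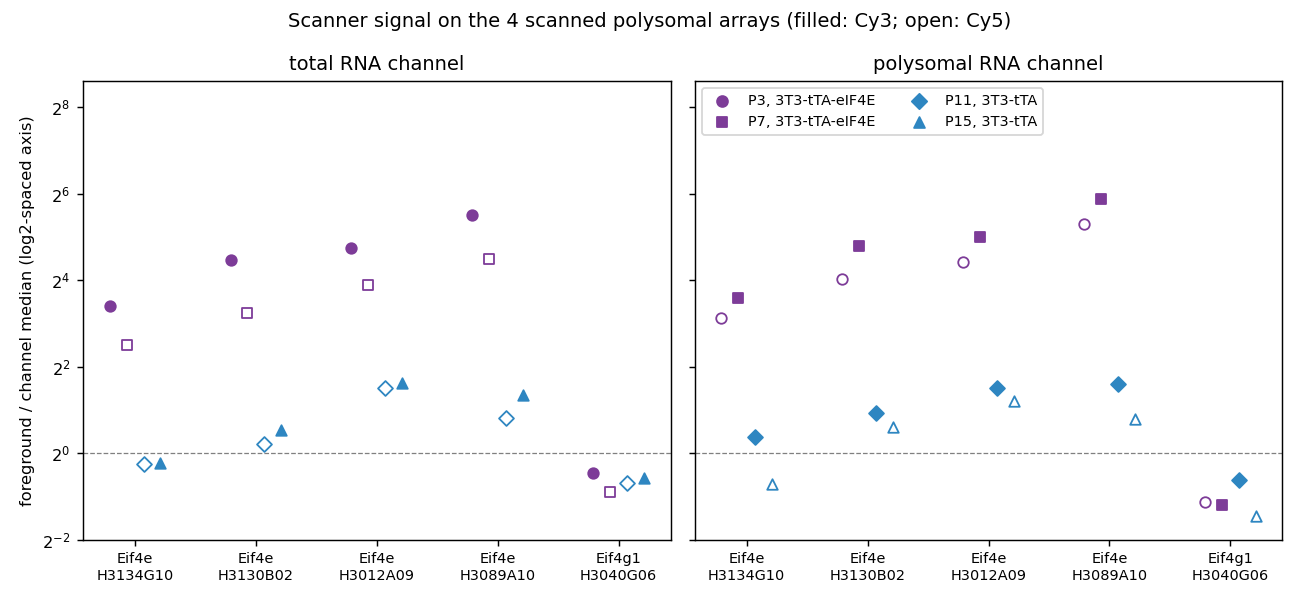
Foreground divided by the channel median, on a log-spaced axis, for the 4 Eif4e clones and the Eif4g1 clone in the total RNA channel (left) and the polysomal RNA channel (right) of P3, P7, P11 and P15; filled symbols are Cy3, open ones Cy5. Every Eif4e clone is higher on P3 and P7 than on P11 and P15 in both channels, while Eif4g1 stays below the channel median on all 4.

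Eif4g1 mRNA, which encodes the scaffold subunit eIF4G1, was not found to change with induction in total RNA. The log2 ratio of H3040G06 in 3T3-tTA-eIF4E was -0.15 on T9, 0.06 on T11, 0.40 on T13 and -0.22 on T15. In 3T3-tTA it was 0.24 on T1, 0.23 on T3, -0.19 on T5 and -0.16 on T7. The sets overlapped almost entirely, and T13 was again the highest array. The means were 0.03 ± 0.28 and 0.03 ± 0.24 (SD, n = 4 arrays each).

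The difference between the lines was -0.01, with a standard error of 0.18 and a 95% interval from -0.46 to 0.45 (limma, adjusted p = 1.00). On the linear scale this interval runs from 0.726 to 1.37 times the parental ratio. In this comparison 0.0% of the 15247 clones were called, and 68 clones, or 0.446%, had an unadjusted p under 0.05, without Eif4g1. Against 0, the mean of the eIF4E line had an adjusted p of 0.995 and that of the parental line an adjusted p of 0.968 (limma).

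The Eif4g1 polysomal/total ratio, by which the clone was chosen, was lower in 3T3-tTA-eIF4E. It was -0.76 on P1, -0.57 on P3, -0.81 on P5 and -0.66 on P7. In 3T3-tTA it was -0.02 on P9, -0.27 on P11, -0.20 on P13 and -0.17 on P15. The sets did not overlap, and a gap from -0.57 to -0.27 lay between them. The means were -0.70 ± 0.10 and -0.16 ± 0.11 (SD, n = 4 arrays each), a difference of -0.53, or 0.690 times the parental ratio.

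Of all clones, 0.61% had their eIF4E arrays wholly below the parental ones in this contrast, and nothing is read from that share because the clone was chosen by it. The difference ranked 690 from the bottom of 15247 clones. The arrays lay close together, with a smaller SD in 3.99% of all clones in the eIF4E line and in 2.19% in the parental line. The clone was chosen on these same values, so nothing is read from the rank or from these SD shares either. The difference was -0.59 on arrays with polysomal RNA in Cy3 and -0.48 on those with it in Cy5. As for Eif4e, P3 and P7 were above P1 and P5, but here all 4 stayed below the parental arrays.

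Eif4g1 was a dim clone on the scanned arrays. Its foreground was 0.83 to 2.63 times the local background over the 8 channels, and in the Cy3 polysomal channel of P7 it lay under the background. It was brighter than 4.35% to 38.9% of all spots. Ratios remade from the intensities without background subtraction gave a difference of -0.40 on the 4 scanned arrays, as the deposited values of those arrays did. With normexp background correction the difference was -0.12, with ratios of -0.17 on P3, -0.35 on P7, 0.01 on P11 and -0.29 on P15. With each channel scaled to its median and no further normalization, the Eif4g1 signal differed between lines by 0.12 in Cy3 and -0.21 in Cy5 in total RNA. In polysomal RNA it differed by -0.57 in Cy3, where P7 was under background, and by 0.33 in Cy5, so the dyes opposed each other in both RNAs.

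**Figure D3:**
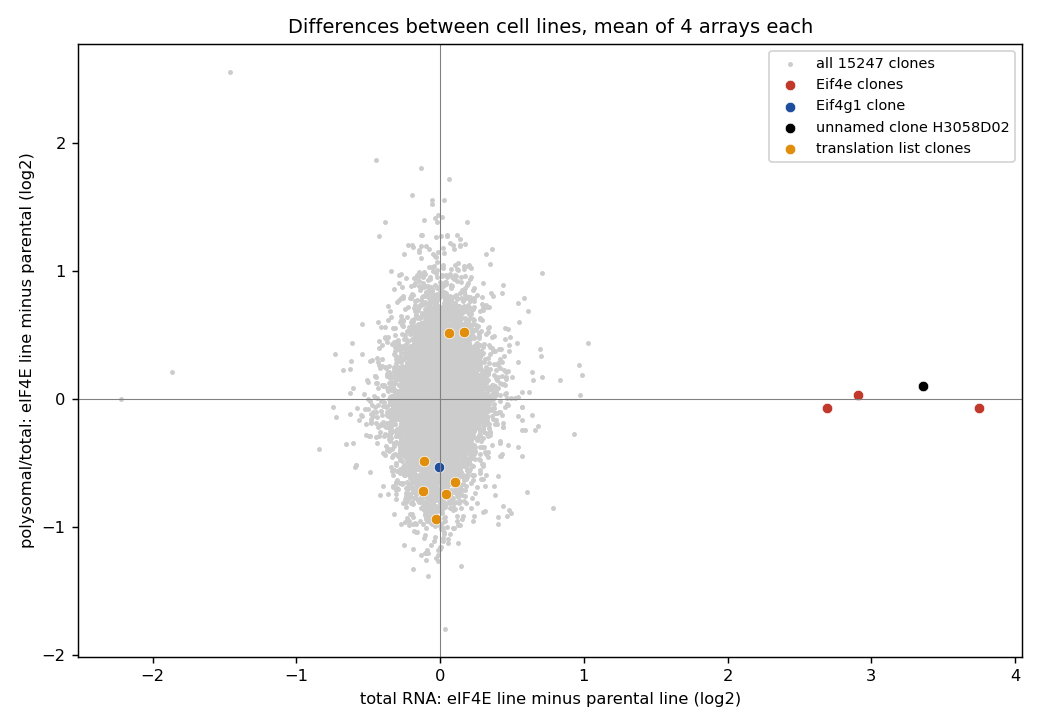
Difference between the cell lines in total RNA (horizontal) and in the polysomal/total ratio (vertical), both log2, for all 15247 clones, each a mean of 4 arrays per line. The 3 Eif4e clones lie far to the right and near 0 on the vertical axis, the Eif4g1 clone near 0 on the horizontal axis and at -0.53 on the vertical axis.

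Other genes of translation had log2 differences between the lines from -0.12 to 0.16 in total RNA. Of a list of 77 translation genes, 7 had a clone with a gene name and values, and all 7 owe their name to having been listed for the polysomal contrast, so only their total RNA ratios were independent of the choice. None of the 7 was called, but the fit called 0.0% of all clones in this comparison, the Eif4e clones included, so that this count says nothing particular to the list. None had an unadjusted p under 0.05, against 0.446% of all clones. Their median difference was 0.04, against -0.01 over all clones, and it was -0.07 without T13, against -0.02. Also, 0 of the 7 had arrays that did not overlap between lines, against 0.918% of all clones.

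By role, the initiation factors gave total RNA differences of 0.16 for Eif1, which takes part in start codon selection, 0.06 for Eif3j1, a subunit loosely bound to eIF3, and 0.04 for Eif2b3, a subunit of the exchange factor for eIF2. Genes around poly(A)-binding protein gave -0.03 for Pabpc4, itself a poly(A)-binding protein, and -0.12 for Paip1, its binding partner. The value was 0.10 for Gspt1, a translation release factor, and -0.11 for Eef1e1, a component of the complex of aminoacyl-tRNA synthetases. The standard errors ran from 0.11 for Paip1 to 0.35 for Eif1. With an array left out in turn the sign changed for 6 of the 7, all but Paip1. Without T13 the differences were -0.20 for Eif1, -0.08 for Eif3j1, -0.07 for Gspt1 and 0.12 for Eef1e1.

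In the polysomal contrast, by which they had been chosen, 2 of the 7 were higher in the eIF4E line, Eif1 at 0.52 and Eif3j1 at 0.51. The other 5 were lower, with -0.94 for Pabpc4, -0.74 for Eif2b3, -0.72 for Paip1, -0.65 for Gspt1 and -0.48 for Eef1e1, beside -0.53 for Eif4g1. The arrays did not overlap for Eif1 and Pabpc4, and for 1.34% of all clones. Pabpc4 rested on P13, at 2.99 against 0.19 to 0.20 on the other parental arrays, and without P13 its difference was -0.23. P15 was the highest parental array for Eif2b3, at 1.64, Eef1e1, at 1.14, Paip1, at 1.12, and Gspt1, at 0.95, and the lowest for Eif3j1, at -0.59. Without P15 the differences were -0.35 for Eif2b3, -0.20 for Eef1e1, -0.51 for Paip1, -0.55 for Gspt1 and 0.35 for Eif3j1. The median of the 7 was -0.65, against 0.01 over all clones, a description that the choice of members fixes. It was -0.35 without P15 and -0.38 with the second duplicate spot alone.

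Among clones with a gene name, those most like Eif4e over the 16 arrays, after the dye term was removed within each set, were Col1a2 (Pearson r = 0.68), Cdk8 (r = 0.679) and Serbp1 (r = 0.614). Their likeness was far below that of the unnamed clone H3058D02, at r = 0.984. Over all clones, Eif4e and unnamed ones included, 20, 22 and 68 had a higher r than Col1a2, Cdk8 and Serbp1. Their total RNA differences were 0.38, 0.79 and 0.83. Each was below the SD over the eIF4E line's total RNA arrays, at 0.71, 0.94 and 1.61. Their polysomal differences were 0.05, -0.85 and 0.14. The named clones most like Eif4g1 were Col4a1 (r = 0.942), Hdlbp (r = 0.872) and Usp9x (r = 0.854), with polysomal differences of -0.75, -0.60 and -0.68. All these points share their arrays, and named clones are mostly those listed for the polysomal contrast, as Eif4g1 was.

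**Figure D4:**
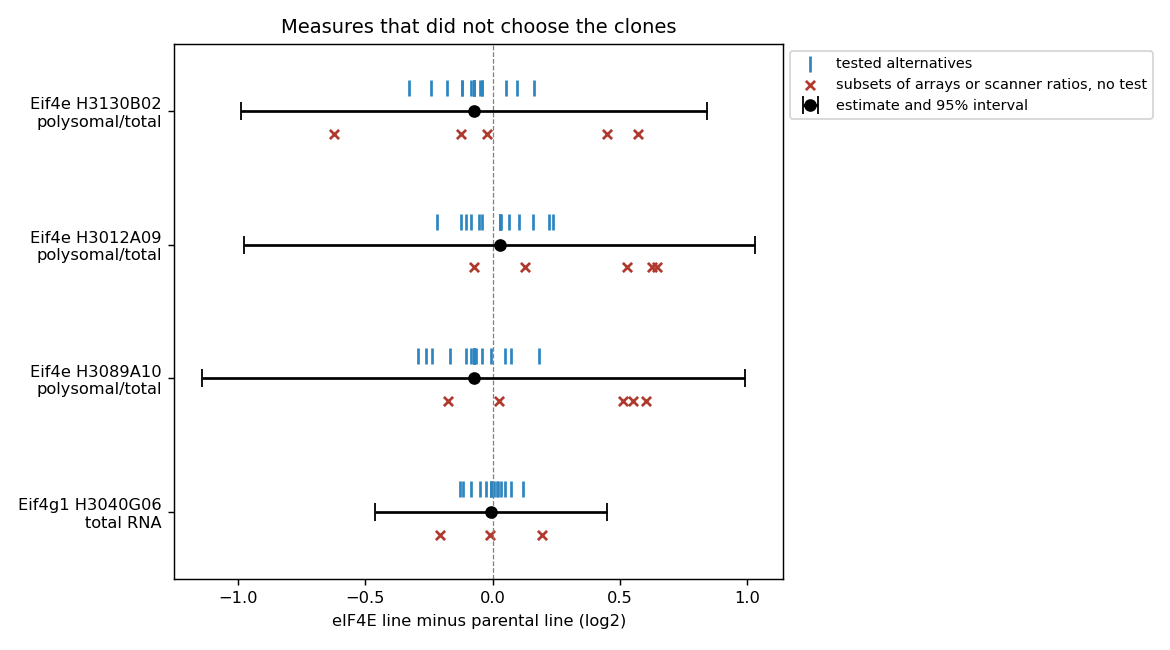
Differences between the lines (log2) in the measures that did not choose the clones: points with bars give the estimate and its 95% interval, ticks the tested alternatives, and crosses the values from subsets of arrays or from scanner intensities. For Eif4e the intervals span about -1.14 to 1.03 and for Eif4g1 -0.46 to 0.45, and 0 lies inside each.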

How the data were processed

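Per the methods, the authors digitized the arrays on a GenePix scanner and applied limma's lowess to each, with no background subtraction; they deposited log2 Cy3/Cy5 ratios. The deposited files of P3, P7, P11 and P15 add unnormalized foreground and background intensity per channel. Ratios were turned by the dyes in the labels.

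The names deposited with the rows belong to other clones. Each of the 15247 rows was therefore paired with spots on the scanned arrays. The 14919 rows at a printed place were named by it, and the other 328 stayed without a clone name. The place held for 572 of 572 clones whose listed difference identified a row. Gene names came from the study's lists and RefSeq. Genome positions and clone sequences were not analysed here.

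After averaging spots and removing a dye term within each set, limma 3.58.1 (R 4.3.3) compared the lines on 2 extraction means per set. The fit was run for all 4 possible assignments, the largest p was taken, and p-values were adjusted by Benjamini-Hochberg over 15247 clones. Error limits come from that assignment, and an SD is over 4 arrays that are not independent. The fit was also run on simulated arrays with independent noise. That setting has no effect shared within an extraction, so nothing is read from it here. Members and lists were chosen with earlier results of these data known. Named were all member clones, the 7 list genes and, for each member gene, the 3 named clones of highest Pearson r. H3058D02 was named after its values were seen. The alternatives were other replicate units, centring, scaling, single spots, dye subsets, leaving out arrays, other thresholds and ratios remade from intensities. Intensities have no counts, so precision is limited by the number of arrays.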

Additional observations from a re-analysis of the deposited data

Results flagged for a closer look

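Of 44 sets of 4 arrays examined, 2 held an array far from the other 3, and chance alone marks about 1 in 20 such sets. For Pabpc4, array P13 of the parental polysomal set stood at 2.99, next to 0.20, 0.20 and 0.19 on the other arrays, and the line difference was -0.94 with it and -0.23 without it. For Paip1, array T1 of the parental total RNA set stood at -0.0509, next to 0.17, 0.19 and 0.20, and the line difference was -0.12 with it and -0.14 without it. No set of Eif4e or Eif4g1 was marked.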

How the results depend on the processing

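Under the alternatives that gave a p-value, no tested difference or ratio of a member passed the threshold, with adjusted p-values of limma from 0.963 to 1.00 for the Eif4e line differences in the polysomal/total ratio, from 0.230 to 1.00 for the Eif4e ratios within a line, and from 0.739 to 1.00 for Eif4g1 in total RNA. Single dye orientations, the scanned arrays and the reference read as uninduced gave values without a test. The sign of each of these estimates changed under some setting, except for the parental line ratios of H3130B02 and H3089A10, which stayed above 0 under 18 of 18 alternatives each. The cause of these changes was not tested. In the main fit 0 of 15247 clones were called in either contrast between lines, the Eif4e clones in total RNA included. Not passing the threshold is therefore no measure of how stable a line difference is.

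For the polysomal/total difference between lines, the first duplicate spot gave 0.10 for H3130B02 and -0.10 for H3012A09. H3012A09 was -0.0522 after scaling to the median absolute deviation and -0.0398 as the mean of the Eif4e clones. Arrays with polysomal RNA in Cy5 alone gave -0.0712 for H3012A09 and 0.0249 for H3089A10. On the 4 scanned arrays, H3130B02, H3012A09 and H3089A10 had 0.45, 0.63 and 0.55 as deposited (chosen after seeing the data), 0.57, 0.65 and 0.60 when remade without background subtraction, and -0.62, 0.53 and 0.51 after normexp. With normexp the ratio of H3130B02 in the eIF4E line was -0.18. Its Cy5 spots on P3 had a local background of 17344. With the reference read as uninduced, the line differences were -3.86, -2.86 and -2.82 and the eIF4E line ratios -3.40, -2.74 and -2.45. The second duplicate spot gave -0.00986 for H3012A09 in the parental line.

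Leaving out arrays in turn gave differences of -0.33 (without P7) to 0.16 (without P5) for H3130B02, -0.22 to 0.24 for H3012A09 and -0.29 to 0.18 for H3089A10, and ratios in the eIF4E line of 0.13 to 0.62 for H3130B02, -0.10 to 0.36 for H3012A09 and 0.08 to 0.56 for H3089A10, lowest without P7 and highest without P5 for each. For Eif4g1 in total RNA it gave -0.13 to 0.12 for the difference, -0.0832 to 0.0804 in the eIF4E line and -0.0930 to 0.15 in the parental line. The Eif4g1 difference was 0.00419 after median centring, 0.0722 with the first spot and 0.19 on Cy3 arrays. Its ratio in the eIF4E line was -0.0110 after scaling, -0.11 with the second spot and -0.18 on Cy5 arrays, and in the parental line -0.0306 with the second spot.

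Of the contrasts that chose the clones, the Eif4e total RNA difference of H3089A10 was 3.19 on Cy3 arrays, 2.20 on Cy5 arrays and 3.12 as the mean of clones, and leaving out arrays gave 3.33 to 4.01, 2.42 to 3.25 and 2.41 to 2.82 for H3130B02, H3012A09 and H3089A10. The Eif4g1 polysomal difference was -0.40 on the scanned arrays as deposited, -0.40 remade without background subtraction and -0.12 after normexp, and -0.58 to -0.47 with arrays left out. Foreground minus background gave line differences in the polysomal RNA channel of 3.10, 3.65 and 4.67 for H3130B02, H3012A09 and H3089A10, and could not be had there for H3134G10 and Eif4g1, which fell below background on an array.

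In total RNA, 0 clones were called, 3 with arrays as replicates, 4 with duplicate spots as independent pairs, 2 with the second spot, 68 at an unadjusted p under 0.05, and 0 to 4 with an array left out (4 without T13, 3 without T15, 2 without T11, 1 without T3). In the polysomal contrast 0 were called and 150 had an unadjusted p under 0.05, of which 1 was on the translation list, Gspt1, which had been listed for this contrast, so that this p is no independent evidence. No paired analysis was possible by replicate number because the numbers in the labels run on from set to set, so the sets compared share no number to pair by. The fits that pair arrays or spots of the same dye across the lines, without such a number, called no member in the measures tested; the pairing of arrays within dye called 0 clones in either contrast. Each set rests on 2 extractions, so shifts inside the printed intervals could not be told from 0. Larger shifts could go uncalled too, as the Eif4e total RNA differences of 2.69 to 3.75 did in the main fit.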
